A study of Homo sapiens with 8 samples.

Results

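The data describe the human miRNAs of catalogue number 3000 and above that were counted in the clear cell renal carcinoma cell line 786O. A known miRNA counted as a member when its number was 3000 or higher and its counts summed over the 8 libraries reached 80. Of 1482 known miRNAs in the count table, 623 carried such a number and 44 of these were members. Members were thus chosen by their measured counts summed over both groups, and a member with few counts in one group had to have many in the other. The number began with 3 in 16 members, with 4 in 18, and with a higher digit in the other 10.

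The groups were 4 NC libraries, from cells given a negative control plasmid, and 4 circSOD2-sh libraries, from cells given a plasmid against the circular RNA circSOD2. Both were transfected with Lipofectamine 3000 per the labels and harvested after 48 h, whereas the methods of the study describe lentiviral knockdown. Every library came from the single line 786O, the shRNA used is not named, and nothing states that replicates were separate cultures, so p-values measure the spread between these libraries, which may be technical. The count table has no row for circSOD2, and its level was therefore not checked here. In bulk RNA, a change in the share of cells that carry a miRNA and a change per cell cannot be told apart.

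A miRNA is cut from a hairpin precursor by the nucleases Drosha and Dicer, and either arm of the hairpin, named 5p or 3p, can be loaded into an Argonaute protein. Pairing of the seed, bases 2 to 8 of the mature strand, with a messenger RNA guides its repression. Numbers are given in order of entry into the catalogue, so high numbers mark entries made in the era of deep sequencing. Such entries include mirtrons, which are cut from introns by splicing, and sequences that match transfer, ribosomal or mitochondrial RNA.

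RefSeq (GRCh38.p14) held the mature sequence of 32 of the 44 members. Those shown first are, among these 32, the members that rose in circSOD2-sh in the test described later, with the seed in capitals. Without a sequence, and so not shown, were miR-4286, miR-4326, miR-4792, miR-3687 and miR-7641, which also rose.
miR-3200-3p: cACCUUGCgcuacucaggucug
miR-5010-3p: uUUUGUGUcucccauuccccag
miR-7976: uGCCCUGAgacuuuugcuc
miR-4746-5p: cCGGUCCCaggagaaccugcaga
miR-3940-3p: cAGCCCGGaucccagcccacuu
miR-7977: uUCCCAGCcaacgcacca
miR-7974: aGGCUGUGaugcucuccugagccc
miR-4485-3p: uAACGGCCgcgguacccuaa
miR-4521: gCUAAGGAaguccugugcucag
miR-4454: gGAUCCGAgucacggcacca
The next are the members with a sequence that fell in that test, written in the same way, which leaves out miR-6515-5p and miR-4661-5p.
miR-3605-5p: uGAGGAUGgauagcaaggaagcc
miR-6733-5p: uGGGAAAGacaaacucagaguu
miR-3944-5p: uGUGCAGCaggccaaccgaga
miR-4484: aAAAGGCGggagaagcccca
miR-3074-5p: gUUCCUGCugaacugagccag
miR-4677-3p: uCUGUGAGaccaaagaacuacu

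The 32 seeds were all distinct, and none was the seed of a known miRNA with a lower number and at least 80 counts, of which 388 had a sequence. Median GC content was 58.1% for the members, from 22.7% in miR-3613-5p to 82.4% in miR-4497, and 47.5% for the lower-numbered miRNAs. Under 20 bases in length were 6 of 32 members (18.8%) and 8 of 388 lower-numbered miRNAs (2.06%). For 27 members the hairpin could be folded, with a median free energy of -0.432 kcal/mol per base and a median of 82.4% of mature bases paired. The corresponding medians of the lower-numbered miRNAs were -0.454 kcal/mol per base and 85.7%. Of the mature bases of miR-7974, 50.0% were paired.

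Introns on the same strand held 16 members in the GENCODE release 29 annotation, of which miR-6733-5p also lay in an annotated exon. The mature miR-5010-3p (chr17:42514267-42514288, plus strand) ended 0 bases from the 3′ splice site of a 310-base intron of ATP6V0A1, which encodes a subunit of the vacuolar proton pump. An 82-base intron of KHSRP, the gene of an RNA-binding protein that takes part in miRNA maturation, held miR-3940-3p (chr19:6416434-6416455, minus strand), 34 bases from its 5′ splice site and 26 bases from its 3′ splice site. The 234-base intron of EBNA1BP2, a ribosome biogenesis gene, held miR-6733-5p (chr1:43171686-43171707, minus strand), 34 bases from its 3′ splice site. The same bases are exonic in a processed transcript of EBNA1BP2 on that strand, so reads of the miRNA and of that transcript cannot be told apart by sequence. The other 13 members in introns lay in longer introns, of up to 45607 bases. Among these were miR-3200-3p (chr22:30731610-30731631, plus strand) in OSBP2, miR-7976 (chr3:127587158-127587176, minus strand) in TPRA1, miR-7974 (chr19:11495544-11495567, minus strand) in ZNF653 and miR-3944-5p (chr10:133371621-133371641, minus strand) in ECHS1. The position of miR-4746-5p (chr19:4445987-4446009, plus strand) overlapped an exon of UBXN6 on the opposite strand. No same-strand gene other than its own was annotated at miR-4521 (chr17:8186948-8186969, plus strand).

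Library totals ran from 6386872 to 9245044 counts in NC, and those of circSOD2-sh from 3743860 to 4208276. A single predicted miRNA took 54.3 to 59.1% of each NC total and 0.063 to 0.105% of each circSOD2-sh total. Levels are therefore given as normalized CPM, in which each library total is first scaled by its TMM factor (trimmed mean of M-values). Libraries NC replicate 4 and circSOD2-sh replicate 2 stood apart from their groups by tissue markers. The neural miR-124-3p reached 3217 normalized CPM in circSOD2-sh replicate 2 and was between 0.853 and 3.01 in the other libraries. Stromal miR-143-3p reached 495.8 in NC replicate 4, 202.0 in circSOD2-sh replicate 2 and no more than 11.8 elsewhere. The kidney tubule miR-192-5p was between 268.7 and 360.8 in all libraries but NC replicate 4, which had 952.5, while the tubule miR-204-5p was at most 1.53 outside circSOD2-sh replicate 2. Results that changed without these libraries are given both ways.

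The members together took a small share of the known miRNA counts, and this share was higher in circSOD2-sh. They held 2419 to 3735 counts in an NC library, 0.0978 to 0.112% of its known miRNA counts. In a circSOD2-sh library they held 4827 to 5841 counts, 0.134 to 0.148% of its known miRNA counts, so the groups did not overlap. As summed normalized CPM, the NC libraries had 544 to 573 and the circSOD2-sh libraries 949 to 1031. Of the gain in this sum, 91.0% came from miR-4521, miR-7974, miR-7977, miR-4286 and miR-4485-3p.

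Counts were concentrated in a few members. The most counted, miR-4521, held 26.2% of all member counts and the 5 most counted held 66.2%. Of the 44 members, 22 had under 200 counts over the 8 libraries. The median member had 194.5 counts, against 985 for the 437 lower-numbered known miRNAs with at least 80 counts. Levels in NC reached 10 normalized CPM in 10 members and stayed under 5 in 26. The floor of 3 counts was worth 0.460 to 0.674 normalized CPM in an NC library and 0.510 to 0.602 in a circSOD2-sh library. Between replicates, the median coefficient of variation of a member was 19.7% in NC and 22.6% in circSOD2-sh.

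**Figure D1:**
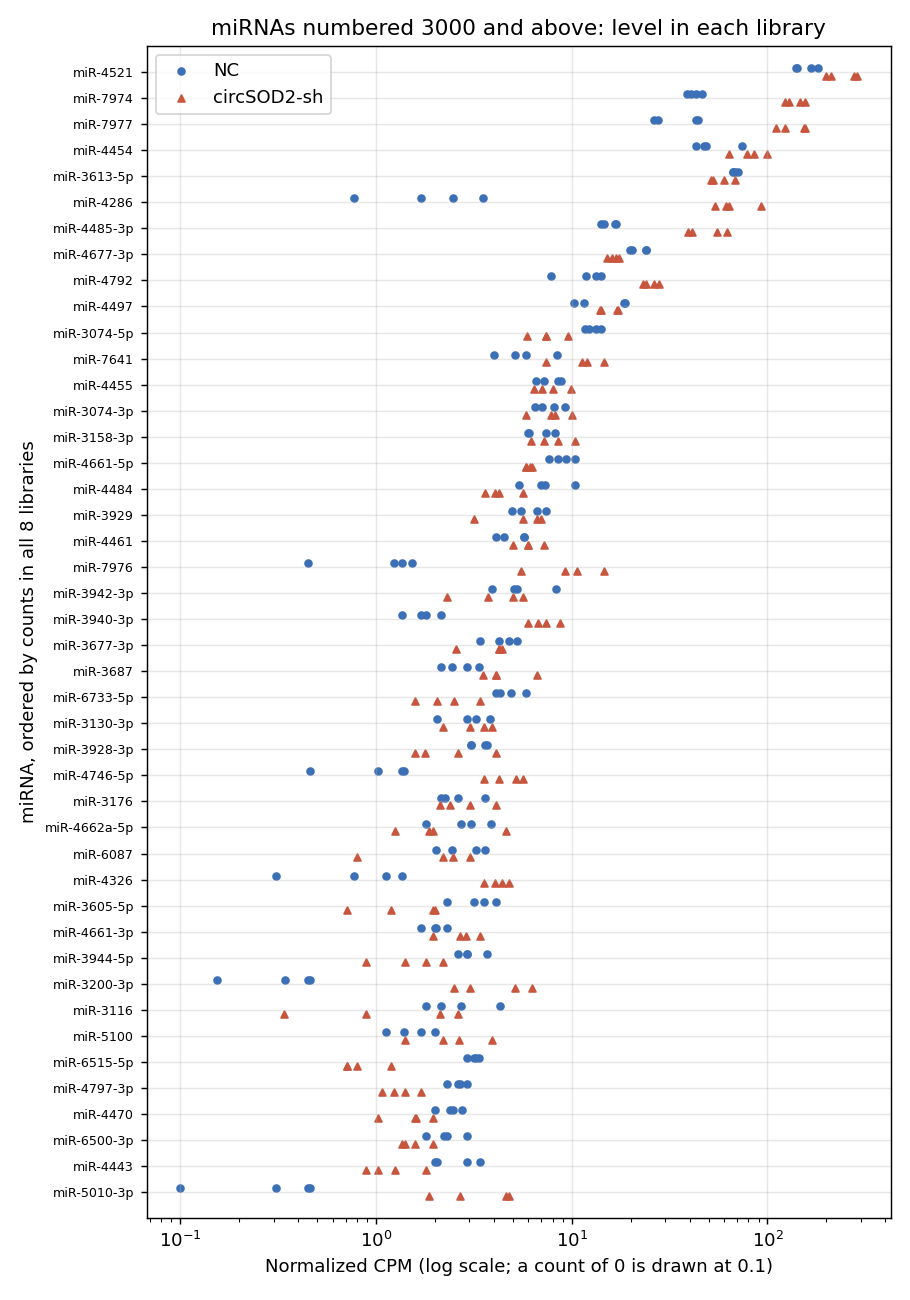
Normalized CPM (log scale) of each of the 44 members in the 4 NC libraries (circles) and the 4 circSOD2-sh libraries (triangles), ordered by total counts. The points of the groups lie farthest apart, on the log scale, for miR-4286, miR-3200-3p, miR-5010-3p and miR-7976.

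The comparison of circSOD2-sh with NC asks which miRNAs change when circSOD2 is targeted. The counts of 895 known and predicted miRNAs passed the filter on low counts and were tested with edgeR, and calls are at an adjusted p under 0.05. Of the 41 members tested, 15 rose (36.6%), 8 fell (19.5%) and 18 were not called, read beside 65.7% called among all 895 miRNAs tested, 33.3% higher and 32.4% lower. Other fits, given below with the untested members, had 15 higher and 10 lower. Among 412 lower-numbered known miRNAs tested, 105 were higher (25.5%) and 124 lower (30.1%). The median log2 fold change was 0.08 for the members, -0.14 for the lower-numbered miRNAs and -0.0021 for all tested. Normalized CPM of the groups did not overlap for 13 tested members that were higher in circSOD2-sh and 8 that were lower, against 28.5% and 31.8% of all tested. Since low members passed the count minimum only through the group in which they were high, the 30 members with at least 40 counts in each group were also counted, of which 10 rose and 5 fell. No share of all tested was taken under that minimum, so this count is not read as a result about the members.

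The split of calls depended on the scaling. With library totals in place of TMM, 28 members were higher and 1 lower, against 68.5% and 17.7% of all tested, and the median of all tested moved to 0.96. Upper-quartile factors gave 27 higher and 1 lower, against 63.7% and 17.9%, with a median of 0.83. Under both, the 15 members that rose with TMM were still higher, and of the 8 that fell only miR-6515-5p was still called lower. Without NC replicate 4 and circSOD2-sh replicate 2, 14 members were higher and 13 lower, against 32.7% and 37.0% of the 945 miRNAs then tested. Without circSOD2-sh replicate 3 alone, 13 were higher and 14 lower, against 28.8% and 36.2% of 970. All 44 members passed the filter in both of these fits, and 2 of the 3 members added by this, miR-4443 and miR-4797-3p, were among those called lower.

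**Figure D2:**
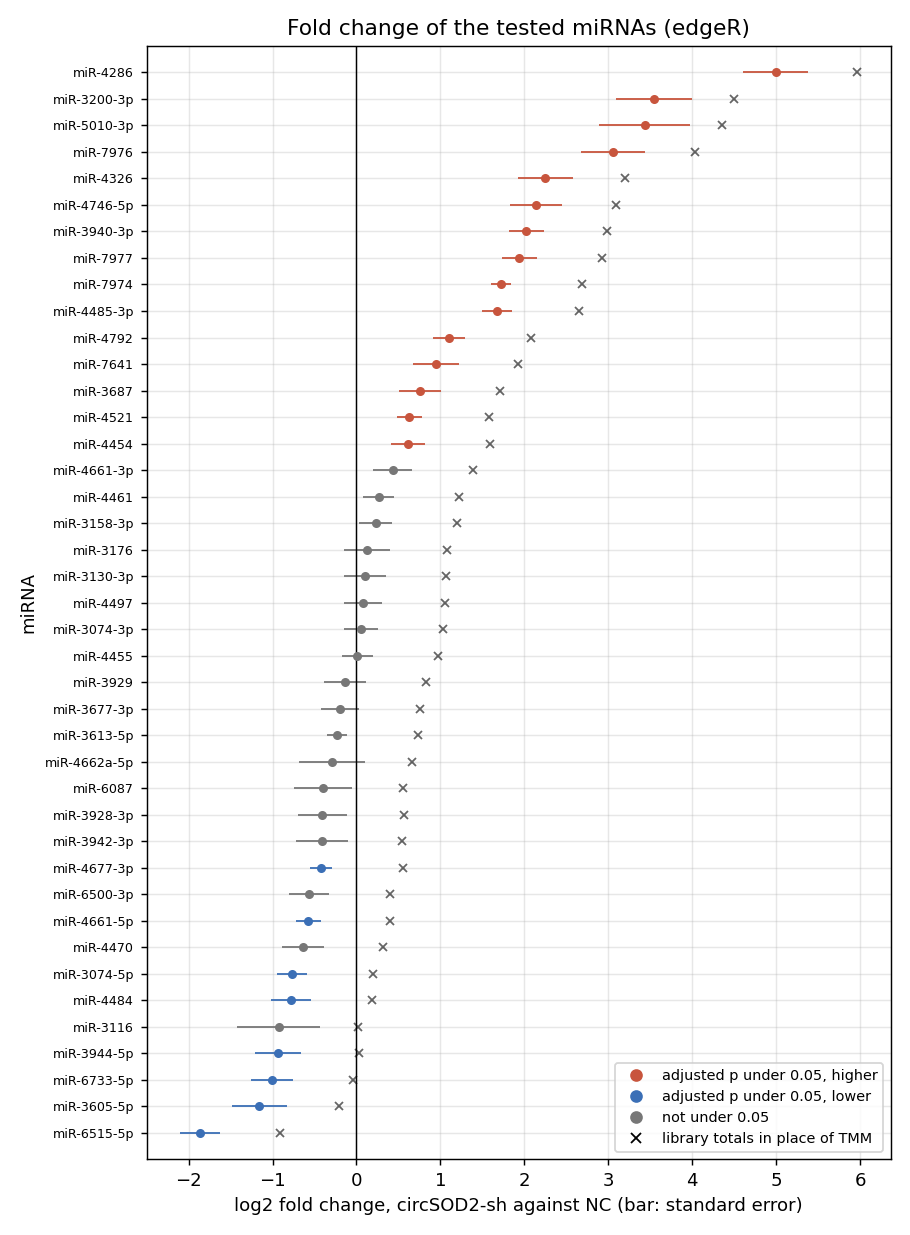
Log2 fold change of circSOD2-sh against NC for the 41 members tested, with the standard error as a bar, coloured by call. Crosses give the fold change with library totals in place of TMM and lie to the right of nearly every point by about the median shift of 0.96. miR-4286 is highest at 4.99 and miR-6515-5p lowest at -1.86, and the crosses of 5 of the 8 members called lower are above 0.

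Rises exceeded 1 on the log2 scale in 11 members. No share of all tested was taken at that size, so this count is not read as a result about the members. The median absolute log2 fold change was 0.64 for the members and 0.81 for all tested. Among the members, miR-4286 rose most. Its counts were 23, 5, 10 and 11 in NC replicates 1 to 4 and 372, 525, 270 and 344 in circSOD2-sh replicates 1 to 4. The lowest circSOD2-sh library was more than 10 times above the highest NC library in counts. Mean levels were 2.12 ± 1.17 and 67.8 ± 17.0 normalized CPM (SD, n = 4 each), a 32.0-fold ratio of means. The log2 fold change was 4.99 ± 0.38 (SE, edgeR adjusted p = 1.45e-06), and it was 4.63 to 5.34 with any single library left out.

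The next 3 rises by log2 fold change were also those of members with few NC counts. For miR-3200-3p the counts were 3, 1, 2 and 2 in NC and 37, 29, 15 and 14 in circSOD2-sh. No NC library was above the floor of 3 counts, and its depth-scaled count ratio was 12.5 with a 95% counting interval of 6.10 to 29.8. The fitted log2 fold change was 3.55 ± 0.45 (edgeR adjusted p = 6.95e-05). The splice-site member miR-5010-3p had 3, 2, 0 and 2 counts in NC and 11, 27, 23 and 15 in circSOD2-sh. It was likewise at or under the floor in all NC libraries, and its count ratio was 11.4 with an interval of 5.29 to 29.4 (log2 fold change 3.43 ± 0.54, edgeR adjusted p = 3.40e-04). These intervals cover counting error only. With 83 counts in all, miR-5010-3p was also the member nearest to the threshold of 80. Counts of miR-7976 were 10, 8, 8 and 2 in NC and 86, 31, 46 and 60 in circSOD2-sh. Its groups did not overlap, and its log2 fold change was 3.06 ± 0.38 (edgeR adjusted p = 5.32e-05). These 3 members had 8, 7 and 28 counts in NC, so they reached 80 only through circSOD2-sh. Membership thus favoured a rise, and their fold changes and p-values are not separate support for it.

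After these, the next 3 rises were of similar size and all from low levels. The opposite-strand neighbour of UBXN6, miR-4746-5p, went from 1.05 ± 0.43 to 4.65 ± 0.92 normalized CPM, a log2 fold change of 2.14 (edgeR adjusted p = 1.74e-04). A change of 2.25 (edgeR adjusted p = 1.93e-04) was found for miR-4326, from 0.891 ± 0.460 to 4.20 ± 0.513. In NC, miR-4746-5p had 24 counts and miR-4326 had 20, so both reached the count minimum only through circSOD2-sh. Membership thus favoured a rise of both, and their fold changes and p-values are not separate support for it. The KHSRP intron member miR-3940-3p had 14, 11, 8 and 8 counts in NC and 35, 38, 37 and 49 in circSOD2-sh. All 4 circSOD2-sh libraries were above all 4 NC libraries, and its log2 fold change was 2.02 ± 0.21 (edgeR adjusted p = 1.36e-05).

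The rise of miR-7974 was the most precise, with a standard error of 0.12 on the log2 scale. It was counted 254, 279, 270 and 180 times in NC and 727, 834, 779 and 723 times in circSOD2-sh. The lowest circSOD2-sh count was more than 2 times the highest NC count. Levels were 42.1 ± 3.10 and 138.9 ± 15.4 normalized CPM, a log2 fold change of 1.72 (edgeR adjusted p = 4.96e-07). For miR-4792 the levels were 11.8 ± 2.81 and 25.3 ± 2.10, a log2 fold change of 1.103 ± 0.19 (edgeR adjusted p = 6.61e-04).

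A smaller rise was measured for the most abundant member, miR-4521. Counts in NC were 927, 1081, 1067 and 623, and in circSOD2-sh they were 1173, 1566, 1424 and 1194. Scaled levels did not overlap, at 157.6 ± 20.1 and 243.5 ± 43.9 normalized CPM. The log2 fold change was 0.63 ± 0.15 (edgeR adjusted p = 0.0040), and the call was lost without circSOD2-sh replicate 3, at the low end of a range of 0.38 to 0.66.

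Several members have names that are listed as matching other RNA classes, from a list of names written with earlier results known. Both members of the transfer RNA list rose, 1 of 2 members of the mitochondrial list rose, and 2 of 3 members of the ribosomal list rose. None of these 7 fell with TMM, where 33.3% of all 895 miRNAs tested rose and 32.4% fell. With so few members, these counts are not read as a result about the classes. Of the 5 that rose, miR-4454, miR-7641 and miR-3687 lost the call when certain single libraries were left out, as given for each. No member belonged to the small nucleolar RNA list.

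The transfer RNA list held miR-7977 and miR-4454, and both end in the bases CCA, as does miR-4484. The CCA end is added to transfer RNAs after transcription and carries the amino acid. It is shown in capitals for the members that have it.
miR-7977: uucccagccaacgcaCCA
miR-4454: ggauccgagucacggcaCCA
miR-4484: aaaaggcgggagaagccCCA
The motif was searched at the 3′ end of the mature strand only. It ended 3 of 32 member sequences (9.38%), 1 of 388 lower-numbered ones (0.258%) and 45 of the 2370 mature sequences of the reference (1.90%). Such a match is a description and not evidence of the reads' origin.

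Counts of miR-7977 (chr3:176515103-176515120, plus strand) were 288, 180, 154 and 192 in NC and 911, 695, 552 and 867 in circSOD2-sh. Its groups were far apart, at 35.3 ± 9.66 and 135.6 ± 22.4 normalized CPM, a log2 fold change of 1.94 ± 0.21 (edgeR adjusted p = 1.88e-05). For miR-4454 (chr4:163093607-163093626, minus strand) counts were 482, 309, 254 and 217 in NC and 464, 564, 316 and 478 in circSOD2-sh. These groups overlapped, at 53.4 ± 13.9 and 81.7 ± 14.98 normalized CPM, and the log2 fold change was 0.61 ± 0.20 (edgeR adjusted p = 0.0202). The call of miR-4454 was lost when any library but NC replicate 1 or circSOD2-sh replicate 3 was left out, and without NC replicate 4 and circSOD2-sh replicate 2 its log2 fold change was 0.37 (edgeR adjusted p = 0.115). The third of the CCA-ended members, miR-4484, fell instead with TMM, from 7.52 ± 2.11 to 4.39 ± 0.859 normalized CPM (log2 fold change -0.78, edgeR adjusted p = 0.0148), and its value was 0.19 with library totals. Of the lower-numbered miRNAs, miR-1260a has the CCA end and rose from 247.7 to 510.4 normalized CPM (log2 fold change 1.04, edgeR adjusted p = 2.00e-04).

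The mature miR-4485-3p (chr11:10508277-10508296, minus strand) was found letter for letter in MT-RNR2, the large ribosomal RNA of mitochondria, and in the nuclear copies MTRNR2L8 and MTRNR2L12. Reads from these sources cannot be told apart by sequence. Its counts were 110, 95, 83 and 74 in NC and 365, 223, 206 and 312 in circSOD2-sh. The groups were apart, at 15.6 ± 1.38 and 49.6 ± 11.0 normalized CPM (log2 fold change 1.67 ± 0.18, edgeR adjusted p = 1.64e-05). Among lower-numbered miRNAs, only miR-1973 also matched MT-RNR2, with a log2 fold change of 2.88 (edgeR adjusted p = 1.01e-05). The other member of the mitochondrial list, miR-4461, had 0.26 ± 0.19 (edgeR adjusted p = 0.237).

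Of the ribosomal RNA list, miR-7641 rose from 5.85 ± 1.88 to 11.3 ± 2.95 normalized CPM (log2 fold change 0.95, edgeR adjusted p = 0.0114), with groups that overlapped. That call was lost without NC replicate 2, without NC replicate 3 and without circSOD2-sh replicate 4. A log2 fold change of 0.76 was found for miR-3687 (edgeR adjusted p = 0.0235), lost when any library but NC replicate 4 or circSOD2-sh replicate 2 was left out. It was also lost with no low-count filter (edgeR adjusted p = 0.123) and with DESeq2 (adjusted p = 0.0665). The value of miR-6087 was -0.40 (edgeR adjusted p = 0.328), and 0.56 with library totals.

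**Figure D3:**
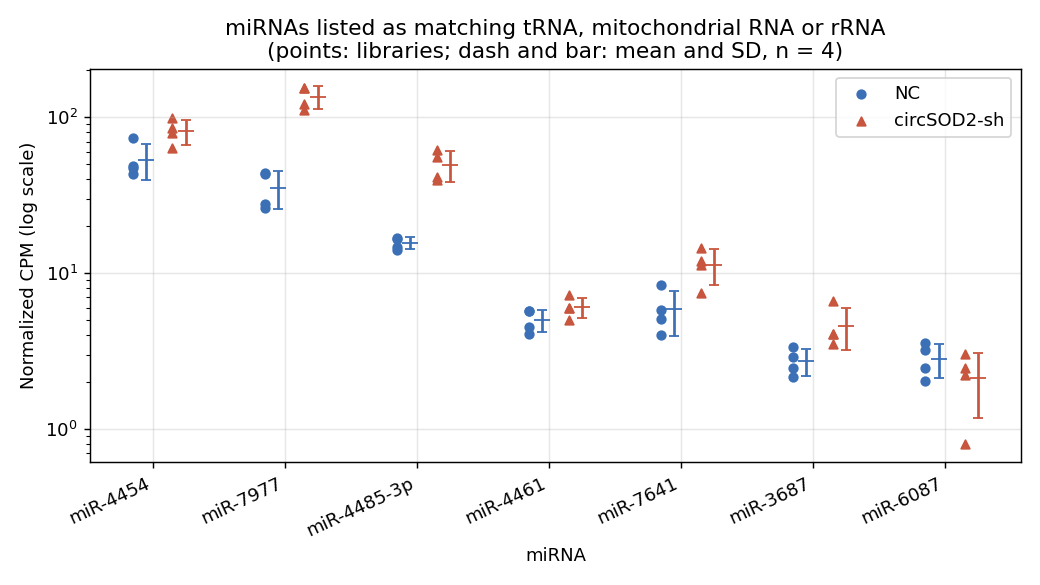
Normalized CPM (log scale) per library of the 7 members listed as matching transfer RNA (miR-4454, miR-7977), mitochondrial RNA (miR-4485-3p, miR-4461) or ribosomal RNA (miR-7641, miR-3687, miR-6087), with mean and SD (n = 4). The groups are apart for miR-7977, miR-4485-3p and miR-3687 and overlap for the other 4.

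The largest fall was that of miR-6515-5p, and all falls below are with TMM. Its counts were 22, 19, 19 and 14 in NC and 7, 4, 4 and 4 in circSOD2-sh. The groups were apart, at 3.17 ± 0.189 and 0.853 ± 0.229 normalized CPM. Its log2 fold change was -1.86 ± 0.24 (edgeR adjusted p = 6.38e-05), and -0.91 with library totals (edgeR adjusted p = 0.0110). With 74 counts in NC and 19 in circSOD2-sh, miR-6515-5p reached the count minimum mainly through NC. Membership thus favoured a fall, and its fold changes and p-values are not separate support for it. When a single library was left out, miR-6515-5p passed the filter in 4 of 8 fits and was called in each of these.

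The PHC2 intron member miR-3605-5p had 15, 23, 24 and 14 counts in NC and 7, 4, 10 and 11 in circSOD2-sh, a log2 fold change of -1.16 ± 0.33 (edgeR adjusted p = 0.0111). PHC2 encodes a Polycomb protein. For miR-6733-5p, in a block of numbers that was entered largely as mirtrons, counts were 32, 28, 24 and 26 in NC and 12, 9, 17 and 14 in circSOD2-sh. It was the single member among the 147 rows of that block that were on no other list, and its log2 fold change was -1.003 ± 0.25 (edgeR adjusted p = 0.0053). With library totals, miR-3605-5p had -0.20 and miR-6733-5p had -0.04, neither called. Counts of miR-3944-5p, from an intron of the fatty acid oxidation gene ECHS1, were 17, 24, 17 and 13 in NC and 13, 8, 9 and 5 in circSOD2-sh. This gave a log2 fold change of -0.93 ± 0.28 (edgeR adjusted p = 0.0141), and 0.03 with library totals. The call was lost with no low-count filter (edgeR adjusted p = 0.0761). In circSOD2-sh, miR-3605-5p had 32 counts and miR-3944-5p had 35, against 76 and 71 in NC. Both thus reached the count minimum mainly through NC. Membership favoured their falls, and their fold changes and p-values are not separate support for them.

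A fall of miR-4677-3p (chr1:243346225-243346246, plus strand), which lies in an intron of the centrosome gene SDCCAG8, depended on the scaling. Counts were 130, 132, 140 and 106 in NC and 103, 91, 75 and 95 in circSOD2-sh. With TMM the log2 fold change was -0.42 ± 0.13 (edgeR adjusted p = 0.0183), and with library totals it was 0.55 (edgeR adjusted p = 0.0068), a call in the other direction. With no low-count filter it was not called (edgeR adjusted p = 0.101).

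Among members not called, log2 fold changes ran from -0.93 for miR-3116 (edgeR adjusted p = 0.127) to 0.43 for miR-4661-3p (edgeR adjusted p = 0.168). The abundant miR-3613-5p, from an intron of DLEU2 at the 13q14 locus of miR-15a and miR-16-1, was counted 445, 435, 417 and 297 times in NC and 310, 385, 300 and 290 times in circSOD2-sh. Scaled levels of 68.3 ± 2.005 and 58.1 ± 7.61 normalized CPM overlapped, a log2 fold change of -0.23 ± 0.12 (edgeR adjusted p = 0.102). It was called lower without circSOD2-sh replicate 2 (-0.42, edgeR adjusted p = 0.0056) or replicate 3 (-0.40, edgeR adjusted p = 0.0262), and higher with library totals (0.73, edgeR adjusted p = 1.48e-04). Without NC replicate 4 and circSOD2-sh replicate 2 together, miR-3613-5p (-0.43, edgeR adjusted p = 0.0044), miR-3116 (-1.42, edgeR adjusted p = 0.0309) and miR-6500-3p (-0.75, edgeR adjusted p = 0.0476) were called lower. The groups of miR-4470 did not overlap, with -0.64 ± 0.25 (edgeR adjusted p = 0.0555). In circSOD2-sh, miR-3116, miR-6500-3p and miR-4470 had 32, 35 and 34 counts, against 66, 55 and 56 in NC. Membership thus favoured lower values of these members in circSOD2-sh. Near-equal levels were found for miR-4497, at 14.8 ± 4.43 and 15.6 ± 1.80 normalized CPM.

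The filter left 3 members untested, miR-4443, miR-4797-3p and miR-5100. When all miRNAs with at least 80 counts were fitted instead, miR-4443 had a log2 fold change of -1.05 (edgeR adjusted p = 0.0151) and miR-4797-3p had -0.94 (edgeR adjusted p = 0.0056). Their counts were 60 and 61 in NC and 27 and 30 in circSOD2-sh, so membership favoured a fall here too. Their fold changes and p-values are thus not separate support for it. In the same fit miR-5100 had 0.70 (edgeR adjusted p = 0.104). All 44 members were tested there, with 15 higher and 10 lower, where the main fit had 15 and 8. RLE factors and a fit of known miRNAs only also gave 15 higher and 10 lower. Shares over all miRNAs were not taken for these fits.

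Among the 23 members named as an arm, the other arm was listed for 21. Both arms were members for the hairpins miR-3074 and miR-4661. For the other 17 the second arm had at most 59 counts, and the member held at least 70.4% of the counts of its hairpin. The member held over 90% in 11 of them. Between the groups, the share of miR-4797-3p did not overlap, at 78.9 to 92.3% in NC and 60.0 to 71.4% in circSOD2-sh. That of miR-5010-3p separated in the other direction, at 0 to 66.7% in NC, from few counts, and 96.4 to 100% in circSOD2-sh. Neither was tested.

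The share of the 5p arm was lower in circSOD2-sh for both hairpins with 2 member arms. A share within a library does not depend on how libraries are scaled, and this comparison was chosen after the values were seen. The 5p arm of miR-3074 was counted 87, 92, 72 and 52 times in NC and 56, 42, 37 and 33 times in circSOD2-sh. Its 3p arm was counted 46, 42, 54 and 36 times in NC and 59, 33, 39 and 46 times in circSOD2-sh. The 5p share was 62.6% ± 5.38 in NC and 48.8% ± 5.81 in circSOD2-sh (SD, n = 4 each), with no overlap of the groups. An exact two-sided permutation test over the 8 libraries gave p = 0.0286, the smallest that 4 against 4 allow. Groups without overlap always give this value, so it adds nothing to the lack of overlap already seen.

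For miR-4661 the 5p counts were 50, 55, 55 and 46 in NC and 36, 33, 29 and 35 in circSOD2-sh. Its 3p counts were 15, 13, 10 and 9 in NC and 17, 11, 17 and 15 in circSOD2-sh. Here the 5p share was 81.5% ± 3.44 in NC and 69.0% ± 4.95 in circSOD2-sh, again without overlap (exact two-sided permutation test, p = 0.0286, and 0.0286 adjusted over the 2 hairpins). That adjustment covers only these 2 hairpins, which were picked after the values were seen, and the p-value again only restates the lack of overlap. By level, miR-3074-5p had a log2 fold change of -0.77 ± 0.17 (edgeR adjusted p = 0.0033) and miR-4661-5p one of -0.57 ± 0.15 (edgeR adjusted p = 0.0070). The 3p arms had 0.05 ± 0.20 (edgeR adjusted p = 0.818) for miR-3074-3p and 0.43 ± 0.23 (edgeR adjusted p = 0.168) for miR-4661-3p. With library totals the 5p values were 0.20 and 0.40 and the 3p values 1.03 and 1.39, so the direction of each 5p arm changed while the share did not. The 0.40 of miR-4661-5p was then called higher (edgeR adjusted p = 0.0431), opposite to its call with TMM, and with no low-count filter it was -0.60 and not called (edgeR adjusted p = 0.0812).

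**Figure D4:**
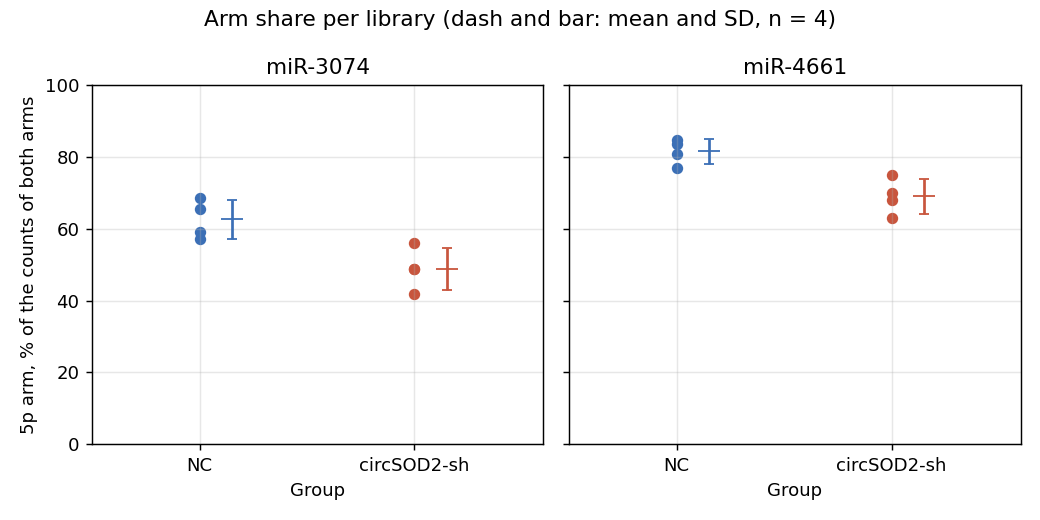
Share of the 5p arm in the counts of both arms, in percent, for the hairpins miR-3074 and miR-4661 in each library, with mean and SD (n = 4). All 4 circSOD2-sh libraries lie below all 4 NC libraries for each hairpin, at 41.8 to 56.0% against 57.1 to 68.7% for miR-3074 and at 63.0 to 75.0% against 76.9 to 84.6% for miR-4661.

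The hairpin of miR-3074 lies on the strand opposite to that of miR-24-1, a widely expressed older miRNA. The mature miR-3074-5p (chr9:95086063-95086083, minus strand) overlaps miR-24-3p by 20 bases and miR-3074-3p (chr9:95086024-95086045, minus strand) overlaps miR-24-1-5p by 19 bases. Whether reads were counted by strand is not given in the sources used here. Without strand, such reads could not be told apart from those of miR-24-3p, which was at 1061 normalized CPM in NC against 12.9 for miR-3074-5p. The log2 fold change of miR-24-3p was -0.12 ± 0.11 (edgeR adjusted p = 0.376).

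The threshold of 80 counts cut through a continuous range. Just inside it were miR-5010-3p with 83 counts, miR-4443 with 87, and miR-6500-3p and miR-4470 with 90 each. Just outside were miR-3934-5p and miR-5094 with 75 each and miR-6815-5p with 72. Of the 579 rows of these numbers below the threshold, 423 had under 10 counts in all 8 libraries together.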

How the data were processed

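Small RNA libraries of 786O cells were sequenced by the authors, who deposited counts per mature miRNA without normalization, for known and predicted miRNAs. Per the submitters' processing notes, FastQC 0.11.2, Trimmomatic 0.36, Bowtie 1.1.1 and GRCh38 were used. The counting tool, its use of strand and reads with several matches, and the miRNA annotation are not given in the sources used here. Tables of CPM by the authors and of their comparison (mean CPM, fold changes, p-values and calls) were not used. Columns were matched to samples by name, and NC was compared with circSOD2-sh (4 libraries each).

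The test was the quasi-likelihood F test of edgeR 4.0.16 (R 4.3.3) after filterByExpr (minimum count 10) and TMM scaling, at its default prior count (0.125), and p-values were adjusted by Benjamini-Hochberg over the 895 miRNAs tested. The filter works on CPM of library totals, which 1 predicted miRNA enlarges in NC. The standard error is the log2 fold change over the square root of F. Alternatives were RLE and upper-quartile factors, library totals, no low-count filter, at least 80 counts in all, a prior count of 2, DESeq2 1.42.0, limma 3.58.1 (voom), known miRNAs only, the replicate number as a block, and libraries left out. The arm comparison and its alternatives were added after the values were seen. Scripts were tested on simulated data. There all libraries had equal depth and the most abundant miRNAs did not change, so the effect of 1 dominant miRNA on the scaling was not tested.

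Sequences and positions are RefSeq GRCh38.p14, introns GENCODE release 29 on GRCh38, and hairpins were folded with ViennaRNA 2.7.2. Tables were made with Python 3.11.15, pandas 2.3.3 and scipy 1.17.1, and figures with matplotlib 3.10.9. Library depth, 3743860 to 9245044 counts, gave members 83 to 9055 counts in all.

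The members and lists were chosen with earlier results of these data known. Named were the 10 members with the most counts, the 10 largest rises and falls among members called without overlap of the groups, the members and rows nearest to the threshold, list members, hairpins with both arms among the members, members sharing a seed (none), and members with a library far from its group. Others named in the text were chosen after their values were seen.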

Additional observations from a re-analysis of the deposited data

Results flagged for a closer look

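Of 88 sets of 4 libraries examined, 44 members in each of 2 groups, 1 held a library far from the other 3, where chance at 1 in 20 would give about 4.4. In circSOD2-sh, miR-3677-3p was at 2.55 normalized CPM (15 counts) in replicate 1 and between 4.24 and 4.41 in the other libraries of the group.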

How the results depend on the processing

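The scaling decided most calls of lower levels. The members called higher numbered 15 with TMM, 28 with library totals and 27 with upper-quartile factors, against 33.3%, 68.5% and 63.7% of all tested. Those called lower numbered 8 with TMM, 1 with library totals and 1 with upper-quartile factors, against 32.4%, 17.7% and 17.9% of all tested. Without NC replicate 4 and circSOD2-sh replicate 2 they numbered 13, against 37.0%. With no low-count filter they numbered 5, and no share over all tested was taken for that fit. By construction, scaling to library totals moved all log2 fold changes together. Leaving out a single library gave 12 to 14 members called higher and 6 to 14 called lower. The 14 lower were without circSOD2-sh replicate 3, where 44 members were tested in place of 41 and 36.2% of all tested were lower. No such share was taken for the other left-out libraries, so those counts are not read as a result about the members. Of the 23 members called, 19 (11 higher, 8 lower) kept their call in every such fit that tested them. Among the lower, miR-6515-5p was tested in 4 of these fits and miR-3944-5p in 7. No share over all called miRNAs was taken, so this count is also not read as a result about the members. No member called higher reversed under any alternative, and members called lower reversed only with library totals or upper-quartile factors.

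Replicate numbers share no stated origin, and the same-numbered libraries deviated together with correlations of 0.26, -0.10, 0.10 and -0.17, so they were not taken as pairs. With the replicate number as a block, 15 members were higher and 8 lower, and no share over all tested was taken.

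With library totals, log2 fold changes reversed to 0.20 (miR-3074-5p), 0.0146 (miR-3116), 0.73 (miR-3613-5p), 0.76 (miR-3677-3p), 0.56 (miR-3928-3p), 0.83 (miR-3929), 0.55 (miR-3942-3p), 0.0251 (miR-3944-5p), 0.32 (miR-4470), 0.19 (miR-4484), 0.40 (miR-4661-5p), 0.66 (miR-4662a-5p), 0.55 (miR-4677-3p), 0.56 (miR-6087) and 0.40 (miR-6500-3p). With upper-quartile factors they reversed to 0.0674 (miR-3074-5p), 0.60 (miR-3613-5p), 0.64 (miR-3677-3p), 0.43 (miR-3928-3p), 0.70 (miR-3929), 0.43 (miR-3942-3p), 0.19 (miR-4470), 0.0492 (miR-4484), 0.27 (miR-4661-5p), 0.54 (miR-4662a-5p), 0.42 (miR-4677-3p), 0.42 (miR-6087) and 0.27 (miR-6500-3p). The value of miR-4455, 0.01 with TMM, was -0.0488 with RLE factors, -0.0187 with no low-count filter, -0.0482 with DESeq2 and -0.26 without NC replicate 4 and circSOD2-sh replicate 2.

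Leaving out a single library moved uncalled values across 0 for miR-3074-3p (-0.20 to 0.10), miR-3130-3p (-0.14 to 0.17), miR-3158-3p (-0.0356 to 0.27), miR-3176 (-0.21 to 0.25), miR-4455 (-0.23 to 0.0107) and miR-4497 (-0.13 to 0.16). With no low-count filter, the calls of miR-3687, miR-3944-5p, miR-4661-5p and miR-4677-3p were lost (edgeR adjusted p from 0.0761 to 0.123), and that of miR-3687 also with DESeq2 (adjusted p = 0.0665). The lower 5p share kept its direction with any library left out, by -16.2 to -11.4 percentage points for miR-3074 and -14.5 to -10.5 for miR-4661. Depth limits members under 200 counts, where single libraries hold a few counts.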

Other observations

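Among the rows of these numbers below 80 counts, 2 passed the filter and were tested. The ribosomal RNA list entry miR-3648, with 65 counts in all, rose with a log2 fold change of 1.54 (edgeR adjusted p = 0.0021), and its groups did not overlap. The value of miR-4488, with 58 counts, was 0.77 (edgeR adjusted p = 0.0611). The third name of the transfer RNA list, miR-7975, had 6 counts in NC and 4 in circSOD2-sh. These rows were named after their values were seen.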
